A study of Mus musculus with 17 samples.

Results

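NRF2 is a transcription factor that switches on genes of the antioxidant defence, and 10 genes of this pathway were described in primary mouse tubular cells and in ageing mouse kidneys: Nfe2l2, Keap1, Nqo1, Hmox1, Gclc, Gclm, Txnrd1, Srxn1, Gsr and G6pdx. They were chosen by name, as NRF2 itself, its inhibitor and 8 of its known target genes, from the 53313 gene identifiers common to all 17 RNA sequencing libraries. All 10 were found in every library and all 10 passed the filter on low counts in each comparison. The study asked how tubular cells change with senescence in culture and with age in the organ.

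PTEC, primary tubular epithelial cells labelled as proximal tubular cells of wild-type C57BL/6Rj mice (C57BL/6JRj in the study's methods), were sampled at day 6 of culture without irradiation (n = 4) and at day 16 after γ-irradiation with 10 Gy (n = 4). Whole kidneys came from untreated wild-type mice of the same strain, male by the study's methods, at 3, 12 and 24 months of age (n = 3 each). Cultures were grown from sieved tubular fragments rather than from sorted cells, and in the cultures irradiation and days in culture changed together and cannot be told apart. Whether the 4 cultures of a group came from separate mice was not given in the sources used here, so p-values in PTEC measure the spread between these samples, which may be technical.

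PTEC libraries held between 26963442 and 35409144 counts. Kidney libraries were deeper, and their depth rose with age without overlap (37311247 to 49471409 at 3 months, 54097073 to 59718029 at 12 months and 62761670 to 66894790 at 24 months). The 3-month tables also listed another gene set (54146 identifiers) than the 12-month and 24-month tables (55401), so table preparation and depth cannot be told apart from age, although the 10 genes had the same identifier version in every table. Levels are given as CPM, counts per 1000000 counts of a library scaled by the trimmed mean of M-values. They were calculated separately for the PTEC table, for the kidney table and for all 17 libraries together. Levels from different tables are therefore on different scales. A gene was called higher or lower where edgeR's quasi-likelihood test gave a Benjamini-Hochberg adjusted p below 0.05 over all genes tested and the log2 fold change was larger than 0.5 in either direction. The cyclin-dependent kinase inhibitor Cdkn1a fitted the irradiated label, at 772 ± 115 CPM (SD, n = 4) in day 16 PTEC and 313 ± 75.4 CPM at day 6, and the proliferation gene Mki67 stood at 7.88 ± 3.24 against 335 ± 130 CPM. In contrast, the labelled cell type was only partly visible: 14 proximal tubule markers summed to 232 to 853 CPM at day 6 and 171 to 355 CPM at day 16, but to 46525 to 61315 CPM in the kidneys. These sums of cultures and kidneys are on separate scales, so only the broad gap is read. In the fit of all 17 libraries, all 14 markers were called lower in day 6 PTEC than in 3-month kidneys. The endocytic receptor Lrp2 was still present in PTEC (203 ± 225 and 227 ± 96.2 CPM), whereas the phosphate transporter Slc34a1 was at 9.12 ± 10.8 CPM at day 6 and 0.0248 ± 0.0320 CPM at day 16, with no test because it did not pass the filter.

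In unstressed cells NRF2 is bound by KEAP1, an adaptor of the CUL3 ubiquitin ligase, and is degraded. Oxidants and electrophiles modify cysteines of KEAP1, NRF2 then accumulates, pairs with a small MAF protein and binds antioxidant response elements in its target genes. The control acts mainly on the protein, which RNA sequencing does not measure, so the transcripts of the targets are the readout here. In the kidney the pathway is known for protecting tubular cells, which have a high oxidative metabolism, against oxidative injury.

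Because the members are linked by this element, their promoters were searched for its core, spelled TGACNNNGC, on both strands, in RefSeq windows on GRCm38.p6 from 250 bases before to 50 after a transcript start. Of the 10 genes, 7 had such a window (9 windows in all), and Hmox1, Gclc and Gsr had none. The core occurred in 5 of these 7 genes, in 1 window each. Of all 32851 windows 12.4% held it, which is a share of windows and not of genes. The stretches around 4 of these matches, upstream of the start of the RefSeq transcript, are shown 5′ to 3′ on the strand of the gene. The match is in capitals, in reverse complement where the core lies on the opposite strand.
Nfe2l2, chr2:75704871-75704913, minus strand, 240 bases before the start: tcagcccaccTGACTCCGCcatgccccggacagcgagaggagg
Gclm, chr3:122245399-122245455, plus strand, 134 bases before the start: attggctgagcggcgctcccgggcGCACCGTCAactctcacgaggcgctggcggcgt
Txnrd1, chr10:82859090-82859146, plus strand, 92 bases before the start: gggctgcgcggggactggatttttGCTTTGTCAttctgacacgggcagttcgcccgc
G6pdx, chrX:74428905-74428961, minus strand, 57 bases before the start: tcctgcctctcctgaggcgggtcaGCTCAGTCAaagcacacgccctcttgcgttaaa
The Txnrd1 match lies in 1 of its 3 windows. The Txnrd1 and G6pdx stretches lie inside the gene spans given below, so they are upstream only of the RefSeq transcript of their window. In Srxn1 the core lay within the transcript, 28 bases after the start, and the sulfiredoxin promoter also held 2 copies of a related palindrome, TGANTCA, the site of AP-1 factors that partly overlaps longer forms of the element. This palindrome occurred in 7.81% of all windows and in no other member.
Srxn1, chr2:152105398-152105452, plus strand, 102 bases before the start: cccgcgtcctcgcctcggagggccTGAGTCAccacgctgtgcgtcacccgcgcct
Srxn1, chr2:152105455-152105509, plus strand, 45 bases before the start: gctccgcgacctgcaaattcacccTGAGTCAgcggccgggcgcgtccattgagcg
The windows of Nqo1 and Keap1 held neither set of letters. Bases farther than 250 before the start were not searched, so these genes may hold an element outside the windows.

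To describe the pathway in senescent PTEC, day 16 irradiated cultures were compared with day 6 cultures. All 10 genes had a lower mean at day 16. The quinone reductase Nqo1, glutathione reductase Gsr, sulfiredoxin Srxn1 and the glutamate-cysteine ligase subunit Gclm fell, by 1.64-fold to 8.71-fold, and no member rose. Thus 4 of 10 members were called lower, where 19.7% of all 15434 genes tested were called lower and 20.1% higher. The median log2 fold change of the members was −0.53, and −0.00 over all genes. In 6 of 10 members every day 16 culture lay below every day 6 culture, which held for 19.9% of all genes tested, and in none was every day 16 culture above, as it was for 22.1%.

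**Figure D1:**
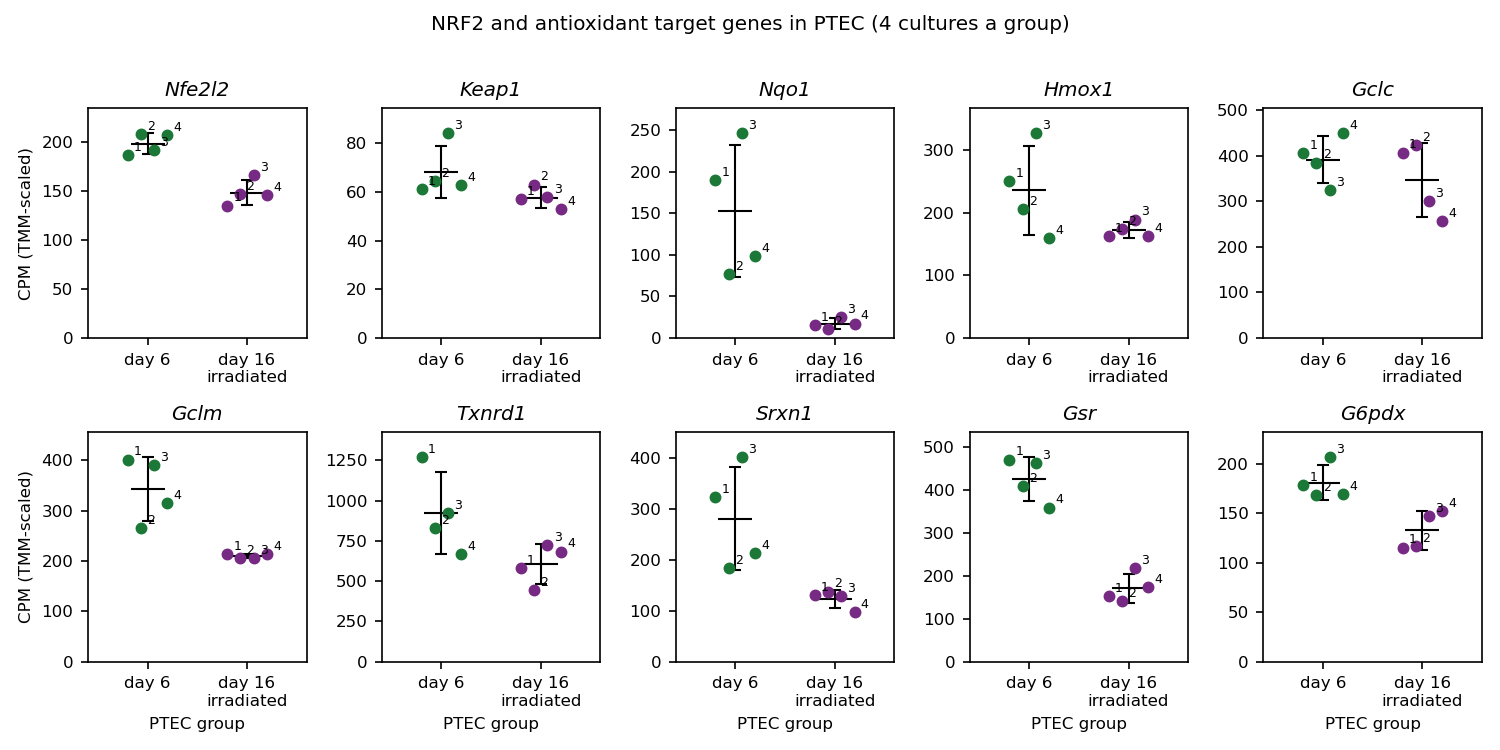
Level of each gene in CPM (TMM-scaled, linear axis from 0) in day 6 and day 16 irradiated PTEC. Points are single cultures with their replicate number, and bars show mean and SD of 4 cultures. For Nqo1 all day 16 cultures lie at or below 25.7 CPM and all day 6 cultures at or above 77.1 CPM, whereas the groups overlap for Keap1, Hmox1, Gclc and Txnrd1.

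Nfe2l2 (ENSMUSG00000015839.6, chr2:75675513-75704641, minus strand), the gene of NRF2 itself, was at 187, 208, 192 and 207 CPM in day 6 cultures 1 to 4 and at 135, 147, 166 and 146 CPM in day 16 cultures 1 to 4. The groups did not overlap, but the decrease was small, with a log2 fold change of −0.42 (SE 0.116; edgeR adjusted p = 0.0159, 95% interval −0.68 to −0.16), and did not reach the fold threshold. Keap1 (ENSMUSG00000003308.15, chr9:21229730-21239361, minus strand) was at 61.0, 64.5, 84.1 and 62.7 CPM at day 6 and at 57.1, 63.0, 57.8 and 52.8 CPM at day 16. Here the groups overlapped and culture 3 of day 6 stood above the other day 6 cultures, and the difference of −0.24 did not pass the test (edgeR adjusted p = 0.182, interval −0.54 to 0.06).

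Nqo1 (ENSMUSG00000003849.8, chr8:107388225-107403206, minus strand) encodes NAD(P)H quinone dehydrogenase, which reduces quinones and is a widely used readout of NRF2 activity. Its level was 190, 77.1, 246 and 98.1 CPM at day 6 and 15.7, 11.2, 25.7 and 17.4 CPM at day 16. Cultures 1 and 3 were thus high at day 6, and even the lowest day 6 culture lay above every day 16 culture. The log2 fold change was −3.12 (SE 0.404; edgeR adjusted p = 0.000296), an 8.71-fold decrease, and stayed between −3.36 and −2.79 when single cultures were left out. Only 1.92% of all genes had a lower log2 fold change. Hmox1 (ENSMUSG00000005413.8, chr8:75093621-75100589, plus strand), whose product breaks down heme, was at 251, 206, 327 and 159 CPM at day 6 and at 162, 174, 189 and 163 CPM at day 16. One day 6 culture lay below all day 16 cultures and the difference of −0.45 did not pass the test (SE 0.204; edgeR adjusted p = 0.0991). Single cultures moved it: without culture 4 of day 6 it passed, at −0.61 (edgeR adjusted p = 0.0183), and without culture 3 of day 6 it was −0.25, with a highest adjusted p of 0.22 over the fits without 1 culture.

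Among the glutathione genes, Gclm and Gsr fell and Gclc did not pass the test. Gclc (ENSMUSG00000032350.9, chr9:77754535-77794485, plus strand), the catalytic subunit of glutamate-cysteine ligase, which carries out the rate-limiting step of glutathione synthesis, was at 405, 384, 324 and 449 CPM at day 6 and at 406, 424, 299 and 257 CPM at day 16. The groups overlapped widely, with a log2 fold change of −0.17 (edgeR adjusted p = 0.488, interval −0.59 to 0.25). Gclm (ENSMUSG00000028124.15, chr3:122245557-122270732, plus strand), the modifier subunit of the same enzyme, was at 402, 266, 390 and 316 CPM at day 6 and at 214, 205, 207 and 213 CPM at day 16. The day 16 cultures were tightly grouped below all day 6 cultures, and the gene fell by 0.71 on the log2 scale (SE 0.152; edgeR adjusted p = 0.00453), or 1.64-fold. Whether the responses of the 2 subunits differed from each other was not tested. Gsr (ENSMUSG00000031584.16, chr8:33652523-33698163, plus strand), which regenerates reduced glutathione, was at 472, 410, 464 and 359 CPM at day 6 and at 153, 141, 218 and 173 CPM at day 16. It fell by 1.31 on the log2 scale (SE 0.169; edgeR adjusted p = 0.000293), or 2.48-fold, with a clear gap between the groups.

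Among the genes of the thioredoxin system, Srxn1 (ENSMUSG00000032802.8, chr2:152105516-152111376, plus strand), which repairs over-oxidised peroxiredoxins, was at 323, 184, 402 and 213 CPM at day 6 and at 131, 137, 128 and 97.2 CPM at day 16. It fell by 1.19 on the log2 scale (SE 0.247; edgeR adjusted p = 0.00395), or 2.27-fold, and again cultures 1 and 3 were the highest at day 6. Txnrd1 (ENSMUSG00000020250.10, chr10:82833951-82897712, plus strand), thioredoxin reductase of the cytosol, was at 1274, 832, 921 and 667 CPM at day 6 and at 580, 445, 723 and 684 CPM at day 16. Its groups overlapped and its log2 fold change of −0.60 missed the threshold (SE 0.227; edgeR adjusted p = 0.0548). With the replicate number as a block the gene was called lower (−0.59, edgeR adjusted p = 0.0372), as it was with DESeq2 (−0.62, adjusted p = 0.0256). Without single cultures the log2 fold change ran from −0.74 to −0.41, the smallest size without culture 1 of day 6, and the adjusted p from 0.0241 to 0.162. G6pdx (ENSMUSG00000031400.10, chrX:74409483-74429194, minus strand), the entry enzyme of the pentose phosphate pathway and a source of NADPH, was at 178, 169, 207 and 170 CPM at day 6 and at 115, 116, 147 and 152 CPM at day 16. The groups did not overlap, but the log2 fold change of −0.45 (SE 0.141; edgeR adjusted p = 0.0281) stayed below the fold threshold. G6pdx shares 418 bases of exon with Ikbkg on the opposite strand, which was at 30.4 to 148 CPM over the 17 libraries, and since the strand setting of the counting was not given in the sources used here, reads of these 2 genes may have been mixed. Keap1 and Gclm overlap only genes that reached no more than 1.84 CPM.

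**Figure D2:**
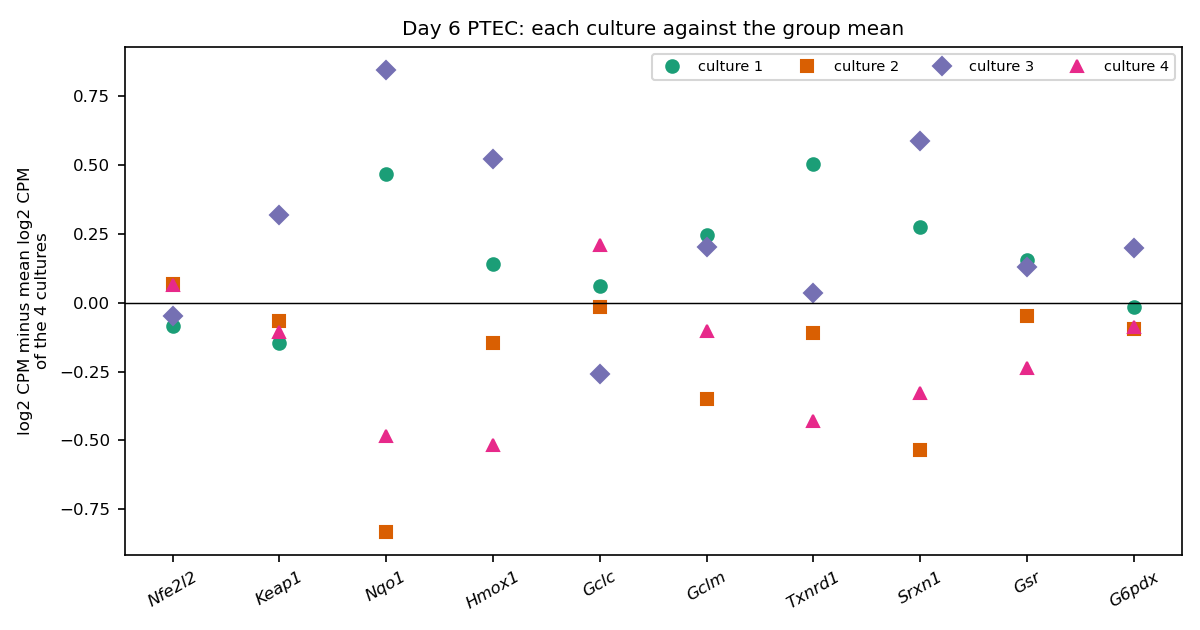
Log2 CPM of each day 6 culture minus the mean log2 CPM of the 4 day 6 cultures, for each gene (symbols mark the culture number). Cultures 1 and 3 lie above cultures 2 and 4 for 7 of 10 genes, with the widest spread for Nqo1, whereas Nfe2l2 varies little.

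The day 6 cultures differed among themselves in a common order. Cultures 1 and 3 were the highest pair for Nqo1, Hmox1, Gclm, Txnrd1, Srxn1, Gsr and G6pdx, 7 of 10 members, and for 17 of 25 further targets of NRF2, whereas this held for 21.0% of 13060 genes at 1 CPM or more. This order was noticed after the values were seen and is given as a description. Nfe2l2 did not follow it, with its highest culture only 1.11-fold above its lowest. At day 16 cultures 1 and 3 were the highest pair for 0 of 10 members and 5 of 24 further targets, beside 10.7% of 13358 genes at 1 CPM or more. The 4 called members stayed called lower without any single culture, and between 4 and 6 members were called lower in those fits, the highest count without culture 4 of day 6. Over all genes between 2369 and 3220 were called lower in the same fits (3044 with all cultures). Their highest count was also without culture 4 of day 6.

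Most of the other NRF2 target genes listed here fell as well. This list, like that of the regulators below, was chosen with earlier results of these data known, so its counts are a description. Of 25 further targets tested, 17 were called lower and 0 higher, with a median log2 fold change of −1.05, beside 19.7% of all genes called lower, 20.1% higher and a median of −0.00. By DESeq2 18 were called lower and 1 higher, beside 21.1% and 20.7% of all genes. With edgeR 19 of 25 had an unadjusted p below 0.05, beside 51.6% of all genes. The largest decreases were those of Gpx2, an epithelial glutathione peroxidase (2.61, 1.51, 2.16 and 1.59 CPM at day 6, and only 2 to 6 counts a library at day 16; log2 fold change −4.12, interval −4.97 to −3.27, edgeR adjusted p = 4.27e-05), and of Abcc2, an export pump for glutathione conjugates (133 ± 47.2 to 19.5 ± 4.98 CPM; −2.78, edgeR adjusted p = 6.81e-05). Blvrb, a biliverdin reductase, fell by 1.96 and the cytosolic NADPH source Idh1 by 1.64 on the log2 scale (edgeR adjusted p = 0.00362 and 2.94e-05). The targets that were not called were Taldo1, Me1, Fth1, Abcc4, Ephx1, Gstm1, Osgin1 and Slc48a1. Of these, the epoxide hydrolase Ephx1 had the highest log2 fold change, 0.73 (edgeR adjusted p = 0.0545), and was called higher with the replicate block (0.83, adjusted p = 0.0329) and with DESeq2. The ferritin heavy chain gene Fth1, at −0.66 (edgeR adjusted p = 0.0595), was called lower with the block (−0.61, adjusted p = 0.0432) and with DESeq2 (−0.67, adjusted p = 0.0243).

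Of 15 genes that control NRF2, 4 were called higher and 0 lower, with a median log2 fold change of 0.24, beside 20.1% of all genes called higher and 19.7% lower. The share called higher was thus near that of all genes. An unadjusted p below 0.05 was reached by 5 of them with edgeR, beside 51.6% of all genes. DESeq2 likewise called 4 higher and 0 lower, beside 20.7% and 21.1% of all genes. Among the 4 regulators called higher by edgeR were Maff and Mafk, 2 of the 3 small MAF proteins. These pair with NRF2 on the DNA but as homodimers repress, whereas the third, Mafg, was not called (0.20, edgeR adjusted p = 0.173). Maff rose from 57.7 ± 9.67 to 133 ± 12.6 CPM (log2 fold change 1.20, SE 0.149; edgeR adjusted p = 0.000225) and Mafk from 47.4 ± 5.46 to 90.4 ± 4.48 CPM (0.93; edgeR adjusted p = 0.000293). The related factor Nfe2l1 rose by 0.70 and Btrc, a ubiquitin ligase subunit that marks NRF2 for degradation independently of KEAP1, by 0.68 on the log2 scale (edgeR adjusted p = 0.00216 and 0.00188). With the replicate block the kinase gene Gsk3b was called higher as well (0.56, adjusted p = 0.00356).

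**Figure D3:**
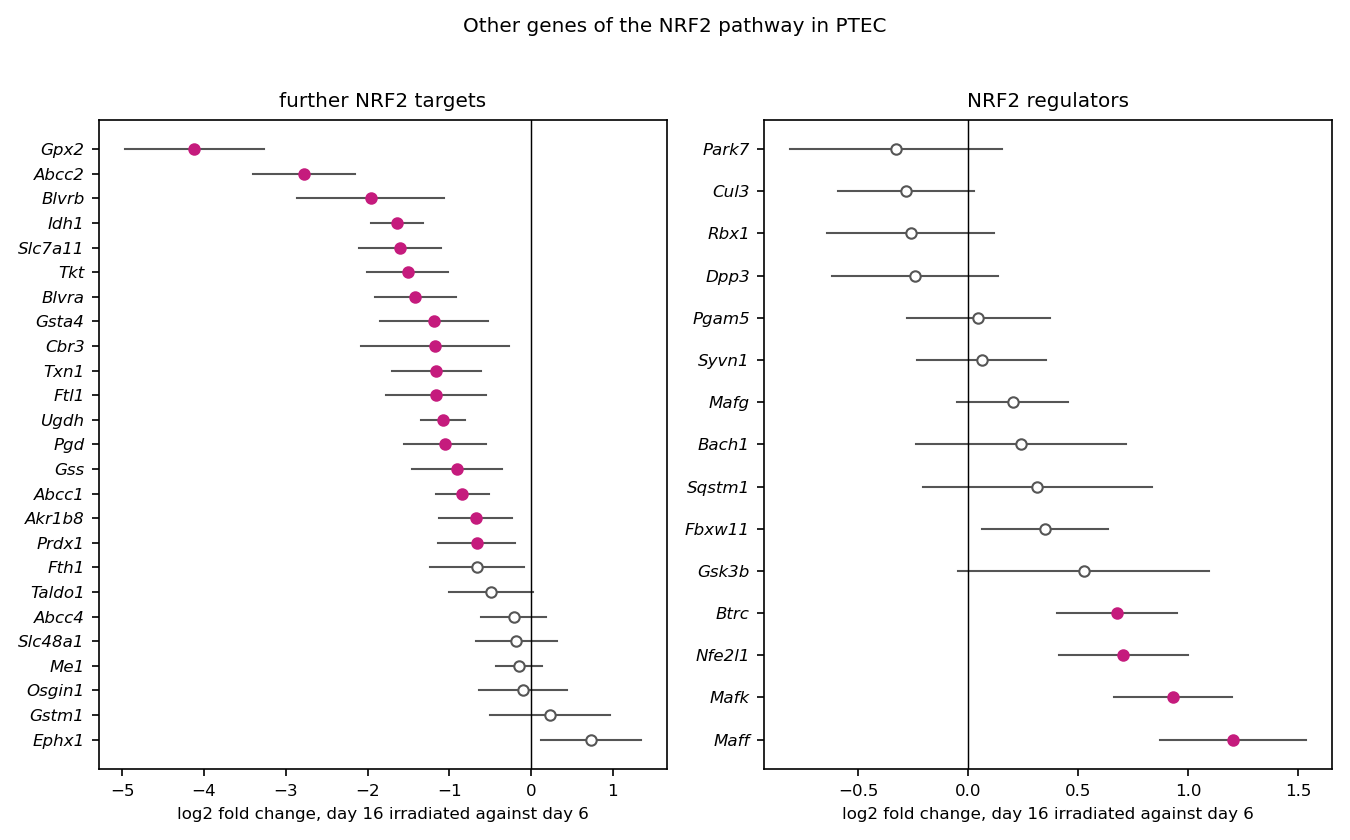
Log2 fold change of day 16 irradiated against day 6 PTEC with its 95% interval for 25 further NRF2 targets (left) and 15 NRF2 regulators (right), sorted by value. Filled points were called (adjusted p below 0.05 and log2 fold change beyond 0.5): 17 targets lie to the left of zero and 4 regulators to the right.

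Markers of some other cells moved between the same groups, while the sums of others overlapped. A fibroblast and pericyte list of 7 genes summed to 16.5 to 96.1 CPM at day 6 and 120 to 427 CPM at day 16. Of 6 tested, 4 were called higher and 0 lower. The 10 genes of cultured tubular epithelium summed to 5007 to 6969 and 2327 to 4558 CPM, but only 3 were called lower, 1 higher and 6 not. They include Krt8, Krt18, Krt19 and Havcr1, which the study reported as rather lower in senescent PTEC. Over all genes 20.1% were called higher and 19.7% lower. Macrophage markers (13 genes) summed to 90.3 to 142 and 65.8 to 257 CPM, with 1 called higher and 1 lower of 11 tested. Adgre1 was at 1.77 ± 0.807 and 1.10 ± 1.02 CPM. General leukocyte markers (6 genes) summed to 21.3 to 40.9 and 13.8 to 33.8 CPM, with 3 called lower and 0 higher of 5 tested. Ptprc was at 3.59 ± 0.825 and 1.87 ± 0.381 CPM. Endothelial markers (6 genes) summed to 79.1 to 246 and 70.5 to 274 CPM, with 1 called lower and 0 higher. Markers of other tubule segments were low in the cultures and lower still at day 16: 5 loop of Henle genes summed to 18.2 to 48.7 CPM at day 6 and 2.78 to 7.78 CPM at day 16, with 4 of 5 called lower, and 7 distal and collecting duct genes to 4.06 to 23.2 and 0.770 to 2.35 CPM, with Aqp2 at 0 at day 16. The part of these cells in the decrease of the NRF2 targets was not tested, and in bulk libraries fewer cells of a type and less RNA per cell cannot be told apart.

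In ageing kidneys Hmox1 was the single member that passed the test, with a lower level at 12 months than at 3 and at 24 months. Of the 10 members 1 was called lower and 0 higher at 12 against 3 months, where 1.36% of 17067 genes tested were called lower and 1.22% higher. No member was called at 24 against 3 months, where 1.89% of genes were called higher and 0.451% lower. DESeq2 called 0 members there as well, beside 5.14% of genes higher and 2.35% lower. With edgeR 2 members, Nqo1 and Gclm, had an unadjusted p below 0.05 at 24 against 3 months, beside 18.2% of all genes. The count was 2 at 12 against 3 months, beside 16.5%, and 4 at 24 against 12 months, beside 15.2%. At 24 against 12 months 1 member, again Hmox1, was called higher and 0 lower, beside 0.896% and 0.434% of all genes. The median log2 fold changes of the members were −0.08, −0.09 and 0.24 in these 3 comparisons, which share their groups of mice and are not independent of each other.

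**Figure D4:**
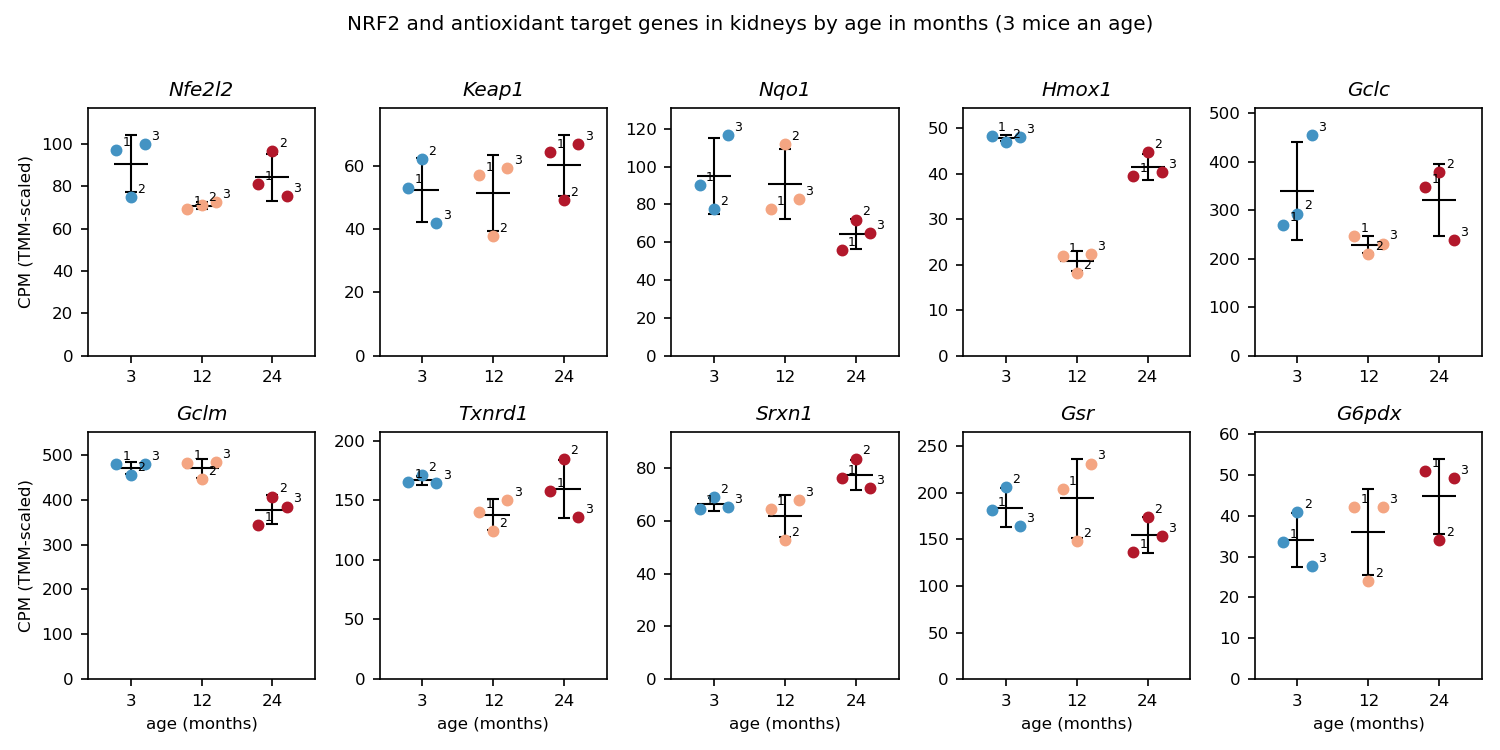
Level of each gene in CPM (TMM-scaled within the kidney table, linear axis from 0) in whole kidneys at 3, 12 and 24 months. Points are single mice with their replicate number, and bars show mean and SD of 3 mice. Hmox1 at 12 months (18.2 to 22.2 CPM) lies below all mice of the other ages.

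Hmox1 was at 48.3, 47.0 and 48.0 CPM in mice 1 to 3 at 3 months, at 21.9, 18.2 and 22.2 CPM at 12 months and at 39.5, 44.7 and 40.3 CPM at 24 months. The 12-month mice lay below all others, and the 24-month mice between both younger groups without overlap. From 3 to 12 months the gene fell by 1.20 on the log2 scale (SE 0.132; edgeR adjusted p = 0.00376), or 2.30-fold, and it stayed called in each fit without 1 mouse (−1.25 to −1.11, highest adjusted p 0.0313). From 12 to 24 months the log2 fold change was 1.0 (SE 0.131; edgeR adjusted p = 0.0181), but this call was lost without any 1 of the 6 mice (0.91 to 1.06, adjusted p 0.0507 to 0.0956) and with the replicate number as a block (1.0, adjusted p = 0.101), while the size of the difference hardly moved. At 24 against 3 months the difference was −0.20 (edgeR adjusted p = 0.402, interval −0.50 to 0.09). Macrophages, which degrade heme from aged red cells, express this gene as well, and the macrophage list summed to 112 to 181 CPM at 3 months, 167 to 190 CPM at 12 months and 189 to 247 CPM at 24 months, with Vsig4 at 0 at 3 months and Marco at 0 at 12 and 24 months. Erythroid genes, which would come with blood left in the organ, summed to 350 to 838, 370 to 529 and 272 to 789 CPM. Distal and collecting duct markers (7 genes) did have their lowest sums at 12 months, at 780 to 1004 CPM against 1223 to 1490 CPM at 3 months and 1034 to 1356 CPM at 24 months. Of the 10 genes of the tubular epithelium list, 3 were called lower at 12 against 3 months (median log2 fold change −0.52). At 24 against 12 months 1 was called higher and 0 lower (median 0.64). This list summed to 1328 to 1729, 938 to 1647 and 1460 to 1946 CPM at the 3 ages. Loop of Henle markers summed to 3930 to 6405, 3240 to 4272 and 4616 to 6026 CPM at the 3 ages, and endothelial markers to 164 to 213, 257 to 264 and 167 to 266 CPM. Proximal tubule markers summed to 52538 to 54028, 55614 to 61315 and 46525 to 51416 CPM, highest at 12 months. Their sums were lowest at 24 months, yet 10 of these 14 genes had a positive log2 fold change at 24 against 3 months (median 0.32). Of them 3 were called higher and 0 lower. Leukocyte markers summed to 55.5 to 65.8, 88.3 to 90.4 and 93.7 to 136 CPM, with Adgre1 at 3.72 ± 0.943, 4.78 ± 0.523 and 7.17 ± 2.42 CPM. The part of these cells in the level of Hmox1 was not tested.

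Nqo1 and Gclm were lowest at 24 months without passing the test. Nqo1 was at 90.5, 77.5 and 117 CPM at 3 months, 77.8, 112 and 82.9 CPM at 12 months and 56.0, 72.0 and 64.9 CPM at 24 months. All 24-month mice lay below all younger mice, and the log2 fold change was −0.56 against 3 months (interval −1.03 to −0.10; edgeR adjusted p = 0.204) and −0.50 against 12 months (interval −0.96 to −0.03; edgeR adjusted p = 0.296). Gclm was at 479, 455 and 479 CPM, at 482, 446 and 484 CPM and at 343, 407 and 385 CPM at the 3 ages. It showed the same order, with a log2 fold change of −0.32 against either younger group (edgeR adjusted p = 0.236 and 0.280). Groups that did not overlap are frequent with 3 mice: they were found downwards in 3 members, Nqo1, Hmox1 and Gclm, at 24 against 3 months, beside 10.1% of all genes, and upwards in 1, Srxn1, beside 11.9%.

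Srxn1 was at 64.7, 69.0 and 65.2 CPM at 3 months, 64.6, 52.7 and 68.0 CPM at 12 months and 76.2, 83.7 and 72.4 CPM at 24 months. The 24-month mice were the highest, with log2 fold changes of 0.22 against 3 months and 0.33 against 12 months that did not pass the test (edgeR adjusted p = 0.393 and 0.315). Gclc was at 269, 293 and 455 CPM, at 246, 210 and 231 CPM and at 347, 378 and 238 CPM at the 3 ages, with 1 high mouse at 3 months and 1 low mouse at 24 months. Its difference of −0.57 at 12 against 3 months did not pass either (interval −1.11 to −0.02; edgeR adjusted p = 0.280). Without the high mouse 3 of 3 months this difference was only −0.30. Nfe2l2 was at 97.2, 75.1 and 99.8 CPM, at 69.2, 71.1 and 72.6 CPM and at 81.0, 96.8 and 75.4 CPM. Its 12-month mice lay closely together below all others, at a log2 fold change of −0.35 against 3 months (interval −0.71 to 0.00; edgeR adjusted p = 0.305). Txnrd1, at 165, 171 and 164 CPM, 140, 124 and 150 CPM and 158, 185 and 136 CPM, was also lower in every 12-month than in every 3-month mouse (−0.27; edgeR adjusted p = 0.429). These were the 4 members without overlap downwards at 12 against 3 months, Hmox1, Gclc, Nfe2l2 and Txnrd1, beside 9.4% of all genes, and 0 members lay upwards, beside 10.9%. At 24 against 12 months Nfe2l2, Hmox1 and Srxn1 lay upwards without overlap and Nqo1 and Gclm downwards, beside 13.5% and 12.2% of all genes.

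Keap1 and G6pdx spread widely between mice of one age. Keap1 was at 53.0, 62.0 and 42.0 CPM, at 57.1, 37.6 and 59.3 CPM and at 64.2, 49.0 and 66.9 CPM at 3, 12 and 24 months. G6pdx was at 33.6, 40.9 and 27.6 CPM, at 42.1, 23.9 and 42.2 CPM and at 50.8, 34.0 and 49.3 CPM. Mouse 3 at 3 months, mouse 2 at 12 months and mouse 2 at 24 months were the lowest of their age for both genes, an order noticed after the values were seen that 32.6% of 12693 genes at 1 CPM or more shared. The deviations of these mice from their group means correlated between them over the genes of the kidney table (r = 0.48 to 0.75). At 12 and at 24 months mouse 2 was also the one furthest from the others over all genes. At 3 months, however, mouse 3 was closer to mouse 1 than mouse 2 was. Neither gene differed between ages beyond this spread, with log2 fold changes of 0.20 and 0.39 at 24 against 3 months (edgeR adjusted p = 0.611 and 0.417). Gsr was at 181, 206 and 165 CPM, at 204, 148 and 231 CPM and at 136, 174 and 153 CPM, its ages overlapped, and its lowest mouse at 3 and at 12 months was the same as for Keap1.

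Of the other pathway genes in the kidneys, 0 of 15 regulators and 0 of 24 further targets tested were called by edgeR in any of the 3 age comparisons. An unadjusted p below 0.05 was reached by 0, 0 and 1 regulators and by 3, 4 and 7 further targets at 12 against 3, 24 against 3 and 24 against 12 months, beside 16.5%, 18.2% and 15.2% of all genes. Called by edgeR were 1.22% higher and 1.36% lower, 1.89% and 0.451%, and 0.896% and 0.434% of all genes. DESeq2 called 1 further target lower at 12 against 3 months (Gsta4, −0.81, adjusted p = 0.0125), 0 at 24 against 3 months and 1 higher at 24 against 12 months (Ephx1, 0.88, adjusted p = 0.00638), where it called 3.78% of all genes lower at 12 against 3 months and 3.47% higher at 24 against 12 months. The median log2 fold change of the further targets was −0.11, −0.08 and −0.00 in the same order, against −1.05 in senescent PTEC.

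**Figure D5:**
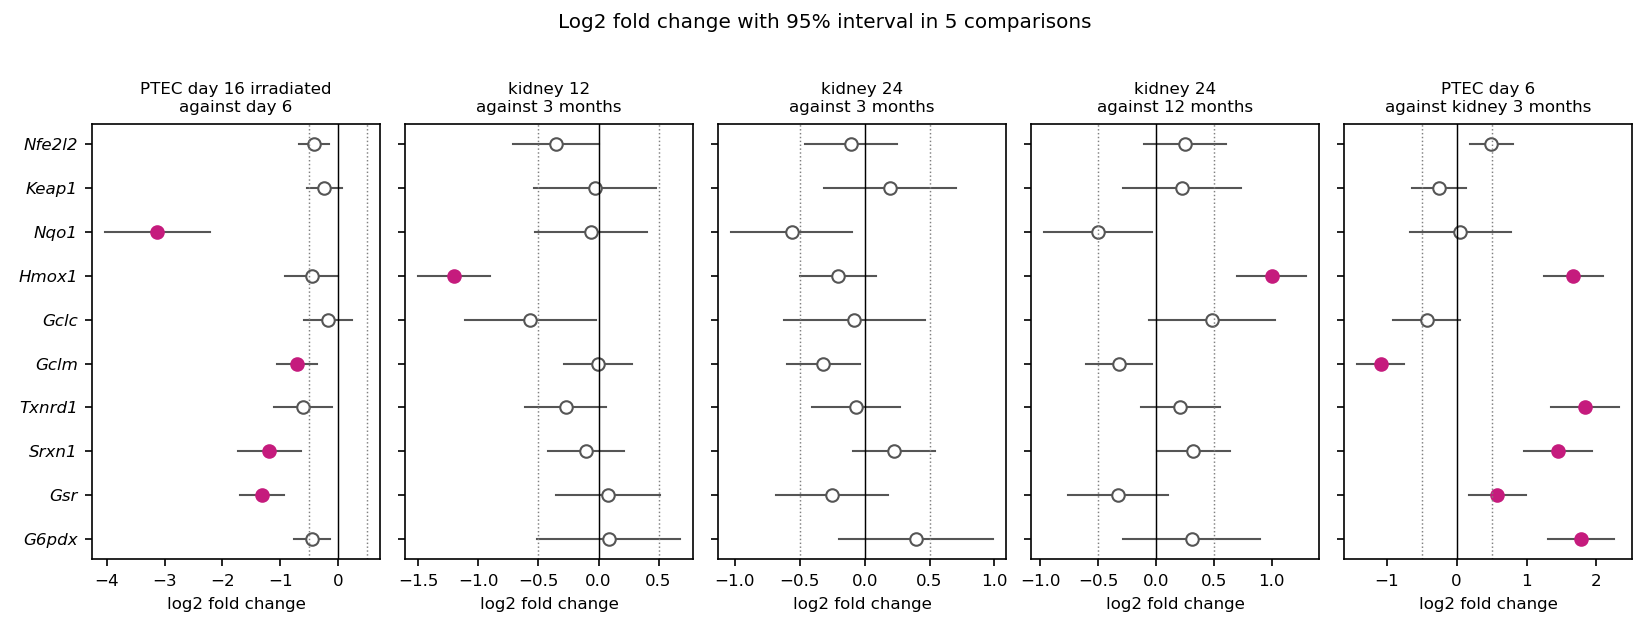
Log2 fold change of each gene with its 95% interval in 5 comparisons, with a separate horizontal scale in each panel and dotted lines at a log2 fold change of 0.5 in either direction. Filled points were called: Nqo1, Gclm, Srxn1 and Gsr in PTEC, Hmox1 at 12 months against each other age, and 6 genes in day 6 PTEC against 3-month kidneys.

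Finally, day 6 PTEC were set against 3-month kidneys in a fit of all 17 libraries, a comparison of a culture with a whole organ that holds many cell types and whose tables list another gene set. On this scale 5 of 10 members were called higher in the cultures, beside 32% of all 17999 genes tested, and 1 lower, beside 35.5%. The groups did not overlap in 6 members that were higher and 1 that was lower, beside 29% and 33.4% of all genes. Txnrd1 was at 735 ± 210 against 206 ± 3.98 CPM (log2 fold change 1.84, edgeR adjusted p = 1.95e-06), and G6pdx at 144 ± 14.4 against 41.9 ± 8.03 CPM (1.78, edgeR adjusted p = 1.92e-06). Hmox1 was 3.19-fold, Srxn1 2.73-fold and Gsr 1.5-fold higher in the cultures. Gclm was lower, at 273 ± 52.6 against 581 ± 19.0 CPM (−1.09, edgeR adjusted p = 9.98e-06). Nfe2l2 was at 158 ± 7.53 against 112 ± 17.1 CPM, a difference of 0.50 just short of the fold threshold (edgeR adjusted p = 0.00567), and was called higher under median-ratio scaling (0.51), total counts alone (1.10), no filter (0.51), DESeq2 (0.51), only the groups compared (0.55) and without some single libraries (0.46 to 0.63 over all of them). Nqo1 stood at 122 ± 63.3 against 117 ± 25.3 CPM, a difference of 0.06 with an interval from −0.66 to 0.77. Scaling by total counts alone moved the median of all genes by 0.60 on the log2 scale, and under it Gclm was no longer called (−0.49), while the differences of Gclc (−0.43) and Keap1 (−0.25), not called on either scale, turned to 0.18 and 0.35.

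Of 25 further targets 10 were called higher and 8 lower in day 6 cultures than in 3-month kidneys, beside 32% and 35.5% of all genes, so that calls in both directions were frequent throughout. The cystine transporter gene Slc7a11, which supplies glutathione synthesis, was at 74.6 CPM in the cultures and 0.156 CPM in the kidneys (edgeR adjusted p = 1.77e-11). Gpx2 (log2 fold change 4.32), the aldo-keto reductase Akr1b8 (4.19) and the export pump Abcc4 (3.51) followed. Gpx2 was near the floor, at 1.57 ± 0.425 CPM in the cultures and 0.0773 ± 0.0843 CPM in the kidneys. Its lowest kidney was at 0, so the size of its fold change is uncertain. The lower ones were Gss, Me1, Idh1, Fth1, Blvra, Abcc2, Gstm1 and Osgin1, with log2 fold changes from −2.89 for glutathione synthetase Gss to −1.30 for Abcc2. Of 15 regulators 6 were called higher and 3 lower, beside the same shares of all genes. Scaling by total counts alone gave 10 and 1, beside 46.5% and 25.6% of all genes. Maff (3.41), Gsk3b (0.91) and Mafg (0.88) led those that were higher, and Park7 (−1.72), Rbx1 (−0.72) and Btrc (−0.60) were lower. Of these, the calls of Rbx1 (−0.35, edgeR adjusted p = 0.2) and Gsk3b (0.74, adjusted p = 0.0628) were lost without mouse 3 of 3 months and that of Btrc (−0.29, adjusted p = 0.177) without mouse 2. With total counts alone Rbx1 (−0.12) and Btrc (0.0026) were not called either.

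Ordered over all 5 groups on the 17-library scale, day 6 PTEC had the highest mean of Nfe2l2, Nqo1, Hmox1, Txnrd1, Srxn1, Gsr and G6pdx, and a kidney group that of Keap1, Gclc and Gclm. For Nqo1 the means were 122 CPM in day 6 PTEC, 117, 113 and 79.2 CPM in kidneys of 3, 12 and 24 months and 13.7 CPM in senescent PTEC. Neighbours among the first 4 of these groups were not shown to differ (edgeR adjusted p = 0.553 to 0.987), whereas senescent PTEC lay below 24-month kidneys (log2 difference 2.53, edgeR adjusted p = 5.98e-06). Gclm fell in 2 steps, from 466 ± 43.1 CPM in 24-month kidneys to 273 ± 52.6 CPM in day 6 PTEC (0.77, edgeR adjusted p = 0.000339) and to 164 ± 3.78 CPM in senescent PTEC (0.74, edgeR adjusted p = 0.000767), with no difference shown among the kidneys. Hmox1 and Txnrd1 were highest in day 6 PTEC, next in senescent PTEC and lowest in the kidneys. In this larger fit their decrease between both PTEC groups had an edgeR adjusted p of 0.0378 (Hmox1, log2 difference 0.48) and 0.0191 (Txnrd1, 0.63), where the PTEC table alone gave 0.0991 and 0.0548. For G6pdx it was 0.0629 (0.47), where the PTEC table alone gave 0.0281. For Keap1 and Gclc no neighbours in the order were shown to differ.

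Levels between genes were compared per kilobase of merged exon length. In day 6 PTEC Gsr (123 ± 15.8 CPM per kb), Hmox1 (107 ± 32.7) and Txnrd1 (104 ± 29.7) were the highest members and Keap1 (11.5 ± 1.81) the lowest. In 3-month kidneys the glutamate-cysteine ligase subunits Gclc (111 ± 33.8 CPM per kb) and Gclm (92.3 ± 3.02) led, and in senescent PTEC Nqo1 had dropped to 8.84 ± 3.13 CPM per kb, beside 9.61 ± 0.708 for Keap1.

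The genes most like 3 of the members over the 17 libraries were found from the root mean square difference of their centred log2 CPM among 13938 genes. Nearest to Nqo1 were Tmem97 (0.35), Wfdc2 (0.45) and Pdss1 (0.46), where the median gene was at 1.54. Nearest to Nfe2l2 were Ints12 (0.14), Smndc1 (0.14) and Prpf38b (0.15), with a median of 0.73. Nearest to Hmox1 were S100a11 (0.25), Gsto1 (0.29) and Schip1 (0.29), with a median of 1.19. The next gene after these for Nqo1 was Blvrb (0.46), one of the further NRF2 targets, and Txnrd1 was the member most like Hmox1 (0.39, rank 33 of 13938). As the 17 libraries form 5 groups, this likeness mostly describes the group means.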

How the data were processed

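Poly(A) RNA was sequenced by the authors in pairs on an Illumina NextSeq from stranded libraries and processed with the nf-core/rnaseq pipeline against GRCm38 with a GENCODE annotation. The study's supplement describes this for a pool of 9 libraries and does not say which of the 17 these were. The aligner, the counter and its strand setting were not given in the sources used here. The deposited values are raw counts per gene, 1 table per library. Genes were joined by Ensembl identifier and named from GENCODE M21 on GRCm38, which also gave coordinates and exon lengths. Counts were fitted with edgeR 4.0.16 (R 4.3.3; filterByExpr, TMM scaling, robust quasi-likelihood test) without a block, in 3 fits: the 8 PTEC libraries, the 9 kidneys with a shared spread, and all 17 libraries. No values of other samples were left unmapped.

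Same-numbered PTEC cultures deviated together (r = 0.186 to 0.614 over 4 pairs) and were treated as paired in the blocked alternative. Pairs of different numbers were at r = −0.492 to 0.265 (12 pairs), so these ranges overlapped. Over the 3 ages together kidney numbers did not pair the mice (r = −0.701 to 0.557), and all same-numbered pairs with a 3-month mouse were negative. Between 12 and 24 months, however, all same-numbered pairs were positive (r = 0.172 to 0.557), as were some pairs of different numbers (up to 0.270). In that comparison the block removed the call of Hmox1. The script was tested on simulated data. Alternatives were DESeq2 1.42.0, other scalings, no filter, the block, only the groups compared, and leaving out each library. All 10 members were named, as were up to 4 called genes of each pathway list with the largest change and any called against the majority. Gsk3b, Gsta4 and the targets not called were named after their values were seen. The members and lists were chosen with earlier results of these data known.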

Additional observations from a re-analysis of the deposited data

Results flagged for a closer look

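Of 20 groups of 4 cultures tested for a sample far from the others (10 genes in 2 PTEC groups), 1 stood out: Keap1 in day 6 PTEC, where culture 3 was at 84.1 CPM and the other cultures at 61.0 to 64.5 CPM. Chance alone flags about 1 in 20 such groups. Without this culture the log2 fold change of Keap1 between senescent and day 6 PTEC was −0.12 (edgeR adjusted p = 0.337), in place of −0.24. Groups of 3 kidneys were not tested in this way.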

How the results depend on the processing

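Median-ratio scaling changed no count of called members or pathway genes by over 1.5 times. Of the single members it changed only the call of Nfe2l2 in day 6 PTEC against 3-month kidneys (0.51), which most other settings changed too and total counts alone raised to 1.10. The further targets called higher in senescent PTEC, 0 in the report, were 1 (Ephx1) with total counts alone, without a filter, with DESeq2 and with the replicate block, and 0 to 1 when single cultures were left out. DESeq2 called 1 further target lower at 12 against 3 months and 1 higher at 24 against 12 months. With the replicate block 0 members were called higher at 24 against 12 months, and apart from these and Ephx1 the block changed no count of members or pathway genes by over 1.5 times. Without single mice the members called higher at 24 against 12 months were 0 to 0, and the further targets called lower 0 to 2 at 12 against 3 months and 0 to 1 at 24 against 3 months, the higher counts in both without mouse 2 of 3 months (Gsta4, and Akr1b8 at 12 months). In day 6 PTEC against 3-month kidneys, total counts alone gave 0 members lower, 10 regulators higher (6 in the report's fit) and 1 lower (3), beside 8371 and 4603 of all genes (5754 and 6391), and turned Gclc to 0.18 and Keap1 to 0.35. With only the groups compared, 1 regulator was lower. Without a filter Gclm at 12 against 3 months turned to 0.021.

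Changes of sign when single libraries were left out were seen only for differences that were not called: at 12 against 3 months G6pdx (−0.048 to 0.31), Gclm (−0.023 to 0.039), Gsr (−0.067 to 0.24), Keap1 (−0.17 to 0.16), Nqo1 (−0.24 to 0.11) and Srxn1 (−0.18 to 0.0037), at 24 against 3 months Gclc (−0.22 to 0.19) and Txnrd1 (−0.18 to 0.033), and in day 6 PTEC against 3-month kidneys Nqo1 (−0.27 to 0.29). Counts over all genes were far less stable in the kidneys than in PTEC. At 24 against 12 months 153 genes were called higher and 74 lower, but 0 to 55 and 1 to 8 without single mice, 592 and 385 with DESeq2 and 0 and 0 with the block. At 24 against 3 months 322 and 77 became 878 and 401 with DESeq2 and 102 and 24 with the block, and at 12 against 3 months 209 and 232 became 674 and 645, and 52 and 66. Without single mice these counts ran from 52 to 460 and 22 to 334 at 24 against 3 months and from 31 to 249 and 21 to 467 at 12 against 3 months, so the shares of all genes called that stand beside the members move with single mice, among them mice 1 and 2 of 3 months and mouse 3 of 12 months, which gave these extremes. The cause of these shifts was not tested. Each member had at least 335 counts in each library, the lowest for Nqo1 in a day 16 culture.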
